A study of Mus musculus with 6 samples.

Results

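Heat shock proteins and their J-domain co-chaperones were followed in the liver of mice of the inbred strain C57BL/6 that had eaten a high fat diet (HFD) or a regular diet (RD) for 2 days. The members were all genes named Hspa, Hspb, Hspd, Hspe or Hsph with a number, all Hsp90 genes and all Dnaja, Dnajb or Dnajc genes of the array's annotation, and they came to 70 of the 19938 genes tested. Each diet had 3 biological replicates, each on an array of its own, so that 3 HFD arrays were set against 3 RD arrays, all of total RNA, and the tissue had been frozen at harvest. The letters NI stand in each title with no explanation, and neither the content of the diets nor the age or number of animals behind a sample was used here. Values are log2 signals per probe set as deposited, and where a gene had several probe sets the brightest was taken.

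Chaperones of the HSP70 family bind unfolded stretches of protein and release them in a cycle driven by ATP. J-domain proteins bring clients to HSP70 and speed its ATP hydrolysis, and nucleotide exchange factors reset it. HSP90 finishes the folding of kinases and steroid receptors, small heat shock proteins hold unfolding clients in solution, and the mitochondrial chaperonin of HSP60 and HSP10 folds imported proteins in a closed chamber. The cytosolic stress response runs through the transcription factor HSF1, whereas BiP and the other ER chaperones are induced by the unfolded protein response. The members were placed by textbook location into 40 of cytosol and nucleus, 13 of the ER, 8 of the mitochondrion and 9 others, which were on none of those lists.

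The arrays grouped by diet, and HFD replicate 1 lay farthest out. Pairs of arrays correlated across genes at r = 0.996 to 0.997 for the same diet and 0.991 to 0.994 for different diets, where genes do not count as independent replicates. The leading principal component placed HFD replicate 1 at 21.5, the other HFD arrays at 12.7 and 12.6, and the RD arrays between -16.5 and -14.5. The hepatocyte markers Alb, Apoa1, Ttr, Cps1, Cyp2e1 and Serpina1c averaged between 14.07 and 14.42 over the 6 arrays, and 0 of the 6 passed the test between diets. Markers of some other liver cells moved with the diet, and those of others did not. Of 7 Kupffer cell markers 4 were higher in HFD, and 1, Cd163, had a negative difference (-0.10, no call). The summed signal of the 7 was 13.23 to 13.65 on the log2 scale in HFD and 12.95 to 13.04 in RD. Of 5 cholangiocyte markers 4 were measured and all 4 were higher, with a summed signal of 10.16 to 10.34 in HFD and 9.72 to 9.86 in RD. For 7 of the 8 marker lists read, hepatocytes included and striated muscle not, HFD replicate 1 had the highest sum of the HFD arrays. Monocyte and neutrophil markers had 1 of 6 higher, with sums of 9.07 to 9.32 in HFD and 8.83 to 8.91 in RD. None of the 6 sinusoidal endothelial markers (13.60 to 13.81 in HFD, 13.51 to 13.60 in RD), 6 stellate cell markers (13.43 to 13.51 in HFD, 13.30 to 13.41 in RD), 5 T and B cell markers (9.12 to 9.67 in HFD, 9.20 to 9.26 in RD) or 6 striated muscle markers (9.71 to 9.85 in HFD, 9.78 to 9.89 in RD) passed in limma, and 0 in each list had an unadjusted p under 0.05. No marker was listed at 0. In bulk tissue, fewer cells of a type and less RNA per cell cannot be told apart.

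After 2 days of HFD, 7 of the 70 members were higher and 0 were lower. Those higher were the small heat shock protein Hspb1, the stress-inducible HSP70 gene Hspa1a, the HSP70 exchange factor Hsph1 and the stress-inducible HSP90 gene Hsp90aa1 in the cytosol, the J-domain proteins Dnajc3 and Dnajb14 of the ER, and Dnajc12, a J-domain protein on no compartment list. Hspb1 rose 2.11-fold, and the other 6 rose by 1.28-fold to 1.53-fold. The count of 7 is 10% of the members, against 3.11% of all genes called higher, and the count of 0 stands against 2.24% of all genes called lower, or 5.35% in either direction (limma, Benjamini-Hochberg adjusted p under 0.05 over all genes). At an unadjusted limma p under 0.05, 14 members were higher and 3 lower, or 17 of 70. Of all 19938 genes 2201 were higher and 1725 lower at that p, 19.7% in either direction. Of the 70 members 52 lay above the median signal of all genes, and they held all 7 calls, 13.5% of the 52, against 5.21% of all genes above that median called higher and 4% called lower. The median difference over the 70 members was 0.040 on the log2 scale, against -0.003 over all genes. Of the 70 differences 41 were positive, against 49.2% of all genes. Above the median signal, the median difference was 0.053 over the 52 members and 0.021 over all genes. Positive differences there numbered 33 of 52 members and 5523 of 9969 genes. An unadjusted limma p under 0.05 was reached there by 15 of 52 members and 2911 of 9969 genes, a similar share.

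How far the 7 calls held depended on the arrays and the model. All 7 differences stayed positive under every alternative tried, but with single arrays left out fewer passed. They numbered 2, 2 and 6 without HFD replicate 1, 2 or 3, and 1, 1 and 3 without RD replicate 1, 2 or 3. With every row of the table in the fit, and in an unmoderated linear model, 0 members passed.

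**Figure D1:**
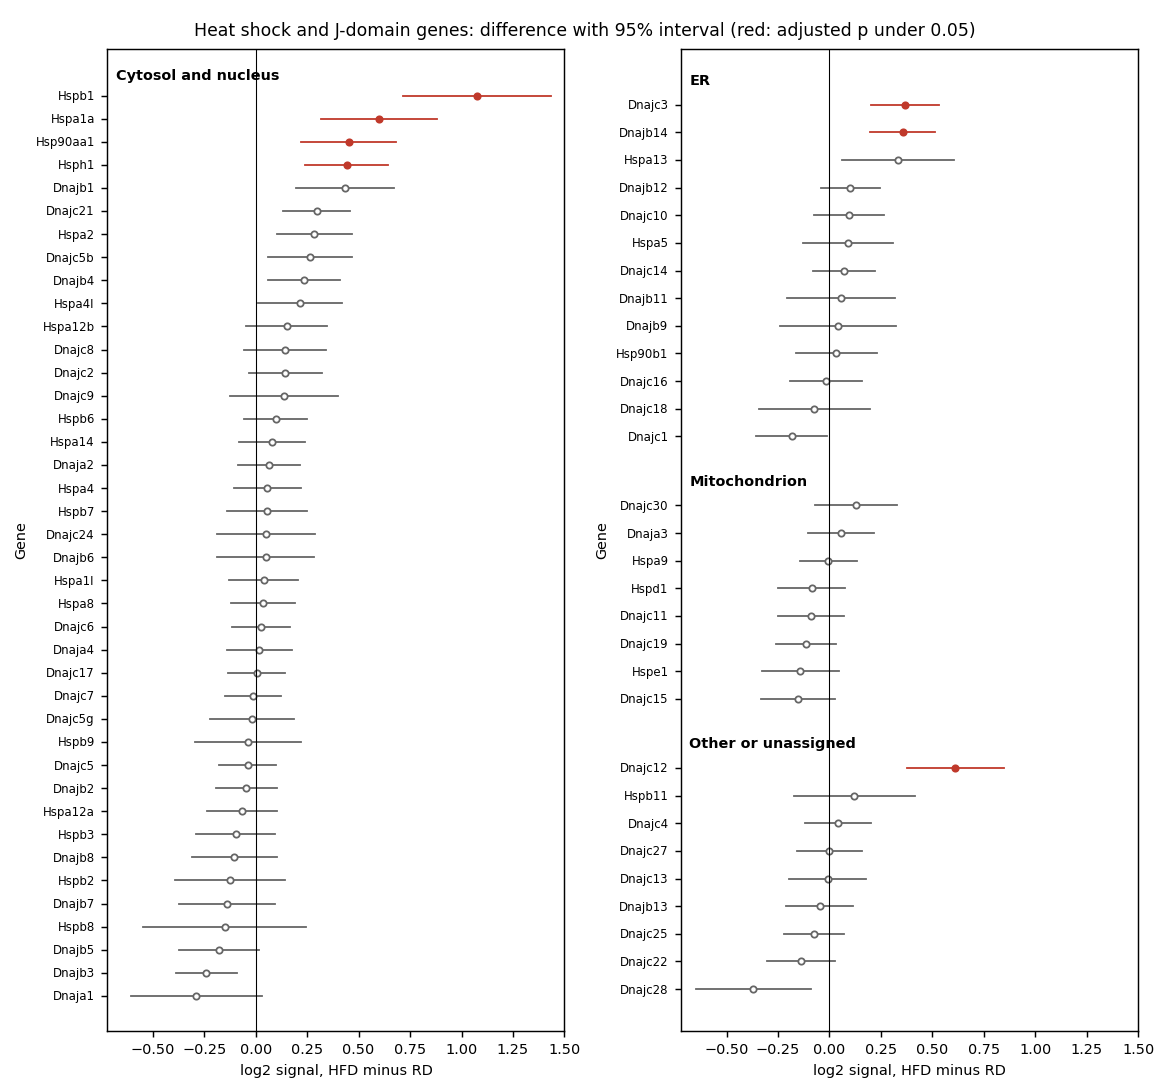
Difference in log2 signal, HFD minus RD, for the 70 members, grouped by compartment and ordered by size, with points for the estimate and lines for its 95% interval from limma. Filled red points mark the 7 members with an adjusted p under 0.05, all of them to the right of 0, 4 in cytosol and nucleus, 2 in the ER and 1 among the others.

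The cytosolic list held the largest difference. Of its 40 members 4 rose, 36 gave no call and 0 fell, so that 10% were called higher, against 3.11% of all genes and 5.21% of those above the median signal. The list had a median difference of 0.050 on the log2 scale and a range of -0.29 to 1.07. The 4 that rose were Hspb1, Hspa1a, Hsp90aa1 and Hsph1, which belong to the classical heat shock genes.

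Hspb1 (probe set 10408928), the small heat shock protein HSP27 or HSP25, had log2 signals of 12.05, 11.68 and 11.34 in HFD replicates 1, 2 and 3, against 10.54, 10.58 and 10.72 in the RD replicates. The diets did not overlap, HFD replicate 1 was the highest array, and the HFD arrays were spread more widely than the RD arrays (SD 0.35 in HFD and 0.10 in RD, n = 3 each). The difference was 1.07 ± 0.16 (SE; adjusted p = 0.0085). A second probe set also gave 1.07, at 11.96, 11.57 and 11.23 in HFD and 10.44, 10.51 and 10.61 in RD. It followed the first array by array, and whether both share sequence was not checked, so it is not counted as independent evidence. Hspb1 was the only member that passed with each single array left out, where its difference ranged from 0.90 to 1.25 and its adjusted p reached 0.0430. It did not pass with every row of the table in the fit (adjusted p = 0.0544) or in the unmoderated model (adjusted p = 0.134). The part of the biliary and macrophage markers in this rise was not tested.

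Hspa1a (probe set 10450369) is 1 of a pair of near-identical genes for inducible HSP70. Its log2 signals were 9.12, 8.86 and 8.62 in the HFD replicates, against 8.36, 8.15 and 8.30 in the RD replicates, again without overlap and highest in HFD replicate 1. The difference was 0.60 ± 0.12 (SE; adjusted p = 0.0314), and left-out arrays gave 0.47 to 0.72, with an adjusted p of up to 0.113. A probe set annotated to both Hspa1a and its twin Hspa1b, and so outside the members, read 11.29, 10.74 and 10.48 in HFD and 10.42, 9.88 and 10.19 in RD, a difference of 0.67 that was likewise free of overlap. Signal of the pair cannot be assigned to 1 of them with certainty.

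Hsph1 (probe set 10535904), the large HSP70 relative that acts as an exchange factor and holds unfolded clients, had 11.06, 10.99 and 10.83 in HFD and 10.62, 10.53 and 10.40 in RD. The gap between the lowest HFD and the highest RD array was 0.21. The difference was 0.44 ± 0.09 (SE; adjusted p = 0.0281). Hsp90aa1 (probe set 10378848) had 12.32, 12.18 and 12.19 in HFD and 11.80, 11.58 and 11.96 in RD, a difference of 0.45 ± 0.10 (adjusted p = 0.0411). Its 3 probe sets gave differences of 0.43, 0.45 and 0.47, and whether they share sequence was not checked. With 1 array left out, Hsph1 passed only without HFD replicate 3 and Hsp90aa1 only without RD replicate 3, and the adjusted p reached 0.0874 for Hsph1 and 0.122 for Hsp90aa1.

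**Figure D2:**
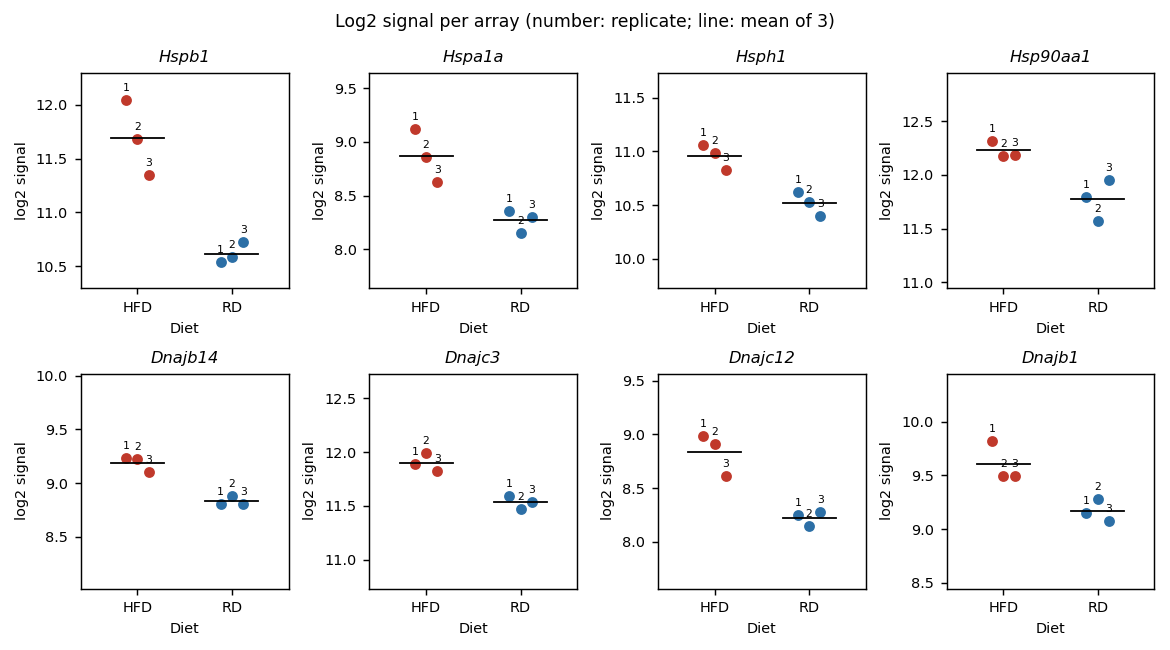
Log2 signal of each array (points, numbered by replicate) and the mean of 3 (lines) in HFD and RD for the 7 members that rose and for Dnajb1, each panel spanning 2 log2 units. HFD and RD do not overlap in any of the 8 panels, and HFD replicate 1 is the highest array for 6 of the 7 that rose.

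Dnajb1, the inducible J-domain partner of HSP70, lay at the threshold. It had 9.82, 9.50 and 9.49 in HFD and 9.15, 9.28 and 9.07 in RD, so that the diets did not overlap. The difference of 0.43 ± 0.10 missed the threshold (SE; adjusted p = 0.0507), and over the alternatives its adjusted p ran between 0.0273 and 0.214. Dnajc21, a J-domain protein of ribosome assembly chosen here after its values were seen, had 9.06, 8.96 and 8.88 in HFD and 8.71, 8.65 and 8.65 in RD, and also missed it (0.30 ± 0.07; adjusted p = 0.0507). Both passed under quantile normalization, median centring, array weights, the intensity trend and among the brighter genes. Dnajb4, another J-domain partner of cytosolic HSP70, had 10.79, 10.72 and 10.63 in HFD and 10.57, 10.48 and 10.39 in RD (0.23 ± 0.08; adjusted p = 0.135).

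In the cytosol Hspa8, Hspa4, Dnaja1 and Hspb8 gave no call. Hspa8, the constitutive HSP70, had 13.90, 13.82 and 13.75 in HFD and 13.79, 13.75 and 13.83 in RD, and its difference was 0.034 with a 95% interval of -0.12 to 0.19. The interval was -0.11 to 0.22 for Hspa4, an exchange factor related to Hsph1. Dnaja1, a farnesylated J-domain partner of HSP70, pointed the other way at 11.52, 11.41 and 11.87 in HFD and 11.94, 12.06 and 11.67 in RD, with overlap (-0.29 ± 0.14; adjusted p = 0.303). A second Dnaja1 probe set gave -0.075. Hspb8, which works with BAG3 in the disposal of misfolded proteins, had 11.999, 11.64 and 12.16 in HFD and 11.97, 12.44 and 11.85 in RD, and its wide interval of -0.55 to 0.25 left its direction unresolved.

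Not all small heat shock proteins moved with Hspb1. Of 8 members with an Hspb symbol, grouped by name alone, 1 rose and 0 fell, 4 differences were positive, and their median was 0.010. For the 7 without a call the differences ran from -0.15 for Hspb8 to 0.12 for Hspb11. Of 13 HSP70 relatives, Hspa1a and Hsph1 rose and 11 had a positive difference, with a median of 0.089. The J-domain genes included 0 of 4 Dnaja, 1 of 13 Dnajb and 2 of 28 Dnajc genes called higher, with medians of 0.036 for Dnaja, 0.041 for Dnajb and 0.003 for Dnajc. Among all genes 3.11% were called higher, and with families this small 1 gene sets much of a share. The medians were not tested against each other.

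Dnajb6, which keeps aggregation-prone proteins in solution, is a member through 1 probe set with a difference of 0.049 and an interval of -0.19 to 0.29. Another 4 probe sets, each annotated to Dnajb6 together with Gm4247, read between 11.58 and 12.14 in HFD and 11.73 and 12.37 in RD. Their differences were -0.20 to -0.21 on the log2 scale, and 1 of the 4 was free of overlap. Which transcript they measure cannot be told apart here. Dnajb3, the member with the lowest signal, had 4.09, 4.08 and 3.998 in HFD and 4.25, 4.34 and 4.29 in RD (-0.24 ± 0.06; adjusted p = 0.0763), and detection calls were not used here.

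In the ER, 2 of 13 members rose, 0 fell and 11 gave no call, so that 15.4% were called higher, against 3.11% of all genes and 5.21% of those above the median signal. The median difference was 0.069 on the log2 scale, or 0.027 to 0.14 with 1 array left out. Both that rose were J-domain proteins. Dnajc3 (probe set 10417013), the luminal partner of BiP also known as a brake on the kinase PERK, had 11.89, 11.99 and 11.82 in HFD and 11.60, 11.47 and 11.53 in RD, a difference of 0.37 ± 0.07 (SE; adjusted p = 0.0273). A second Dnajc3 probe set held the same value on 6 of 6 arrays and adds no evidence. Dnajb14 (probe set 10496387), an ER membrane protein with its J domain toward the cytosol, had 9.24, 9.22 and 9.10 in HFD and 8.80, 8.88 and 8.80 in RD (0.36 ± 0.07; adjusted p = 0.0253). Both were free of overlap, by gaps of 0.23 for Dnajc3 and 0.22 for Dnajb14. With 1 array left out each passed only without HFD replicate 3 (adjusted p up to 0.0977 for Dnajc3 and 0.0940 for Dnajb14). The 2 probe sets annotated to both Dnajb14 and Pin4 overlapped between the diets, with differences of 0.063 and 0.058.

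Hspa5, Hsp90b1, Dnajb9, Dnajb11, Dnajc10, Hspa13 and Dnajc1 gave no call in the ER. Hspa5, which encodes BiP, the HSP70 of the ER, had 13.01, 13.26 and 12.99 in HFD and 13.09, 13.02 and 12.88 in RD. Its difference was 0.089, with a 95% interval of -0.13 to 0.31. Hsp90b1, the HSP90 of the ER, had 12.73, 12.89 and 12.61 in HFD and 12.78, 12.70 and 12.65 in RD, with an interval of -0.16 to 0.23. The diets overlapped in both. Dnajb9, a J-domain partner of BiP in the control of the sensor IRE1, had an interval of -0.24 to 0.32, Dnajb11, another luminal partner, one of -0.21 to 0.32, and Dnajc10, a disulfide reductase with a J domain, one of -0.074 to 0.26. Hspa13, a microsomal HSP70, was free of overlap at 10.63, 11.00 and 10.64 in HFD and 10.36, 10.59 and 10.33 in RD, but missed the threshold (0.33 ± 0.12; adjusted p = 0.165). So did Dnajc1, an ER membrane J-domain protein, which was lower at 8.94, 8.95 and 8.76 in HFD and 9.11, 9.06 and 9.03 in RD (-0.18 ± 0.07; adjusted p = 0.220).

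**Figure D3:**
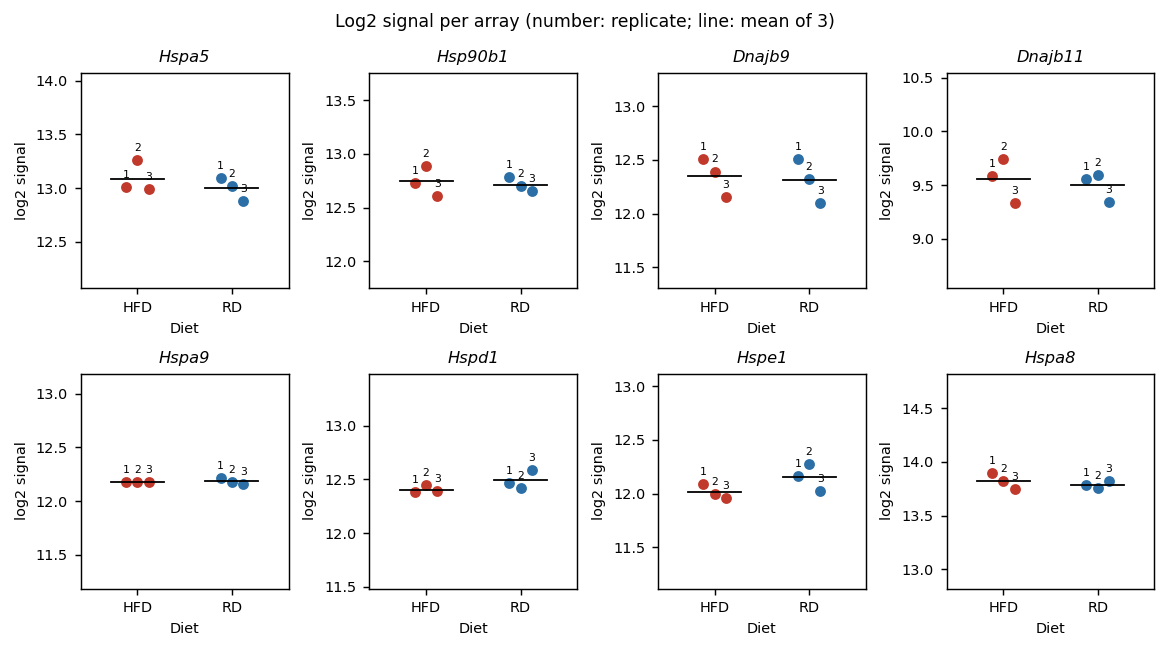
Log2 signal of each array (points, numbered by replicate) and the mean of 3 (lines) in HFD and RD for the ER chaperones Hspa5, Hsp90b1, Dnajb9 and Dnajb11, the mitochondrial chaperones Hspa9, Hspd1 and Hspe1, and the constitutive cytosolic Hspa8, each panel spanning 2 log2 units. The diets overlap in all 8 panels, and for Hspa9 the 6 arrays lie between 12.16 and 12.21.

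None of the 8 mitochondrial members passed in limma, and 0 had an unadjusted p under 0.05. Their median difference was -0.088 on the log2 scale, with 6 of 8 negative and a range of -0.15 to 0.13. Hspa9, the mitochondrial HSP70 or mortalin, had 12.18, 12.18 and 12.18 in HFD and 12.21, 12.18 and 12.16 in RD, with a 95% interval of -0.14 to 0.13. Hspd1, the chaperonin HSP60, had 12.38, 12.44 and 12.39 in HFD and 12.47, 12.41 and 12.59 in RD (interval -0.25 to 0.075). Hspe1, its lid HSP10, had 12.09, 11.997 and 11.96 in HFD and 12.17, 12.27 and 12.03 in RD (interval -0.33 to 0.046). A second Hspd1 probe set was free of overlap, at 12.10, 12.10 and 12.11 in HFD and 12.16, 12.29 and 12.32 in RD, with a difference of -0.15, and a second Hspe1 probe set overlapped and also gave -0.15. Dnaja3, a J-domain partner of mortalin, had an interval of -0.10 to 0.21 and Dnajc30 one of -0.072 to 0.33. Dnajc15 and Dnajc19, J-domain proteins of the inner membrane import motor, had differences of -0.15 ± 0.08 (adjusted p = 0.341) and -0.11 ± 0.06 (adjusted p = 0.377). Dnajc19 had 10.22, 10.28 and 10.31 in HFD and 10.39, 10.42 and 10.35 in RD, so that the 3 HFD arrays lay below the 3 RD arrays. The same held for Dnajc11, another mitochondrial member, named after its values were seen. The count of 2 mitochondrial members without overlap is 25% of the list, against 25.7% of all genes.

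Among the 9 members on no compartment list, Dnajc12 (probe set 10363669) rose and none fell. That is 11.1% of the list, against 3.11% of all genes called higher. DNAJC12 is known from humans as the co-chaperone of the aromatic amino acid hydroxylases, which include the liver enzyme that degrades phenylalanine. Its log2 signals were 8.99, 8.91 and 8.61 in HFD and 8.25, 8.14 and 8.28 in RD, with a gap of 0.33 between the diets. The difference of 0.61 ± 0.10 (SE; adjusted p = 0.0157) was the second of the 70 in size. It passed with 4 of 6 arrays left out in turn and lost the call when RD replicate 1 or 2 was dropped, with 0.0650 as the highest adjusted p. Dnajc28 had the most negative difference of all members, with 7.74, 7.84 and 7.43 in HFD and 7.91, 7.98 and 8.22 in RD, but missed the threshold (-0.37 ± 0.12; adjusted p = 0.135). Dnajc22 (-0.14) and Dnajc25 (-0.076) were smaller and gave no call. Dnajc13, an endosomal J-domain protein, was measured by 15 probe sets, of which 8 had a positive and 7 a negative difference, between -0.11 and 0.25.

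**Figure D4:**
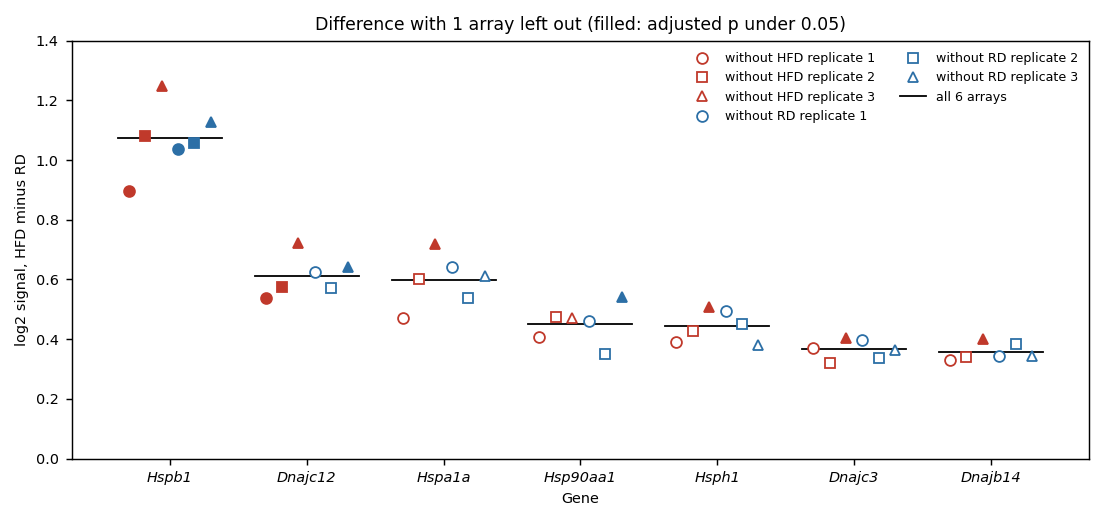
Difference in log2 signal, HFD minus RD, for the 7 members that rose, with 1 array left out at a time (red for HFD arrays, blue for RD arrays) and with all 6 arrays (line). Filled symbols mark an adjusted p under 0.05: all 6 for Hspb1, 4 of 6 for Dnajc12 and 1 of 6 for each of the others.

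Across the whole group, 21 of 70 members had HFD and RD values that did not overlap, 30% of them, against 25.7% of all genes, so non-overlap alone was near the background. Among the members that rose, HFD replicate 1 was the highest HFD array for 6 of the 7 and replicate 2 for Dnajc3, while replicate 3 was the lowest for 6 of the 7. Replicate 1 was also the highest HFD array for the summed signal of 7 of 8 marker lists, those of Kupffer cells, cholangiocytes and hepatocytes among them, and the part of these in the rises was not tested. Of the 63 members without a call, 58 had a 95% interval that lay wholly within 0.5 log2 units of 0 on both sides.

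Chaperones and co-chaperones that the naming rule of the members did not take in were read from lists made alongside the members. In the list of HSF1 and cytosolic co-chaperones 22 of 23 genes were measured, Hsf1 itself not being among those with a probe set of a single symbol, and 2 rose and 0 fell, with a median of 0.14 and 19 positive differences. Stip1, the adaptor that links HSP70 to HSP90, had 11.61, 11.62 and 11.59 in HFD and 11.38, 11.29 and 11.30 in RD (0.29 ± 0.06; adjusted p = 0.0390). Cacybp rose by 0.31 ± 0.07 (adjusted p = 0.0325). Of 14 chaperonin CCT and prefoldin genes, the actin and tubulin folding machinery, 2 rose and 0 fell. They were the CCT subunits Cct3 (0.36 ± 0.07; adjusted p = 0.0311) and Cct4 (0.32 ± 0.07; adjusted p = 0.0428), and the list's median was 0.071. Of 22 measured ER chaperones and folding enzymes 2 rose and 0 fell, with a median of 0.076. Sdf2l1, a partner of the BiP co-chaperone Dnajb11, had 11.75, 12.13 and 11.74 in HFD and 11.32, 11.17 and 11.29 in RD (0.61 ± 0.11; adjusted p = 0.0209), and the disulfide isomerase Txndc5 rose by 0.31 ± 0.07 (adjusted p = 0.0406). None of 15 mitochondrial chaperones and proteases passed in limma, 2 had an unadjusted p under 0.05, and their median was 0.048. In the order given, these lists had 9.09%, 14.3%, 9.09% and 0% called higher. Background shares were the same as above, 3.11% of all genes higher and 2.24% lower, and 5.21% and 4% of those above the median signal.

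A last list held 15 genes that heat shock induces and that the naming rule did not take in, 13 of them measured. Of these 3 rose and 1 fell, or 23.1% and 7.69%. The shares were 3.11% and 2.24% of all genes, and 5.21% and 4% of those above the median signal. Stip1 and Cacybp among the risers are shared with the co-chaperone list, as are Bag3, Chordc1, Fkbp4 and Ahsa1, which gave no call. Hmox1, the haem oxygenase, which NRF2 also drives, rose by 1.13 ± 0.10 (adjusted p = 7.56e-04). The fall was that of Mt1, a metallothionein that metals and glucocorticoids also induce, with 11.59, 12.66 and 12.75 in HFD and 13.41, 13.80 and 13.67 in RD (-1.29 ± 0.28; adjusted p = 0.0342). Mt2, another metallothionein of the list, was named after its values were seen. It was also lower without overlap but gave no call (-0.58 ± 0.17; adjusted p = 0.0904). Of the 13 differences 10 were positive and 3 negative. Hmox1 passed with each single array left out, whereas Mt1 (adjusted p up to 0.122) and Sdf2l1 (up to 0.0830) each lost the call when any 1 of the RD arrays was dropped. Stip1, Cct4 and Txndc5 lost the call whichever array was dropped, with adjusted p up to 0.123 for Stip1, 0.144 for Cct4 and 0.130 for Txndc5. Cacybp passed only without HFD replicate 3 (up to 0.109) and Cct3 only without HFD replicate 1 (up to 0.103).

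The promoters of the members that rose were read for the sequence elements of the cytosolic and ER stress responses. RefSeq windows (build GRCm38.p6) ran from 250 bases before to 50 bases after the start. They were used for 57 of the 70 members and for 5 of the 7 that rose, Dnajc12 and Hsp90aa1 not being among them. HSF1 binds inverted repeats of GAA, and the trimeric element searched was GAA, TTC and GAA in that order with 2 bases of any kind between neighbours, or the same read from the other strand. Its dimeric forms GAANNTTC and TTCNNGAA, which read alike on both strands, lie within it. The ER stress response element searched was CCAAT and CCACG with 9 bases of any kind between them, on both strands. Shown are 3 cytosolic genes that rose, then Hspe1 as a mitochondrial gene with the trimeric element. Hspd1 holds the same stretch on the other strand and is not shown. Dnajc3 and Hspa5 follow, which carry the same ER element and of which only Dnajc3 was called. Capitals mark the searched elements.
Hspb1, chr5:135887669-135887968, plus strand: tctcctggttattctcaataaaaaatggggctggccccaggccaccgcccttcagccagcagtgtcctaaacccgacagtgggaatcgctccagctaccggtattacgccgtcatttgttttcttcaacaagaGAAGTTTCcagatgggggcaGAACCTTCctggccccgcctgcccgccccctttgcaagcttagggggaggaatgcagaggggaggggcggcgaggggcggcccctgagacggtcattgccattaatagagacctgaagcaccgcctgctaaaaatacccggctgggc
Hspa1a, chr17:34972107-34972406, minus strand: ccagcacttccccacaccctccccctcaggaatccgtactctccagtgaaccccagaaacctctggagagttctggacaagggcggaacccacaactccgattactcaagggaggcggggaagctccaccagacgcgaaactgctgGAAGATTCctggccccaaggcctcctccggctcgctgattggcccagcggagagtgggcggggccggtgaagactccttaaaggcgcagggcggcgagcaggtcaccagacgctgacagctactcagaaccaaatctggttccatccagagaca
Hsph1, chr5:149636266-149636565, minus strand: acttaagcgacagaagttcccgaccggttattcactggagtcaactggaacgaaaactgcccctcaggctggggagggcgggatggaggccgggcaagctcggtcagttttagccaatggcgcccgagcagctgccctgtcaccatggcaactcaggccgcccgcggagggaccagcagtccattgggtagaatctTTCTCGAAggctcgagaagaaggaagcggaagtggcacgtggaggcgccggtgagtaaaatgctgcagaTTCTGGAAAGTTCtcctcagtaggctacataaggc
Hspe1, chr1:55087898-55088197, plus strand: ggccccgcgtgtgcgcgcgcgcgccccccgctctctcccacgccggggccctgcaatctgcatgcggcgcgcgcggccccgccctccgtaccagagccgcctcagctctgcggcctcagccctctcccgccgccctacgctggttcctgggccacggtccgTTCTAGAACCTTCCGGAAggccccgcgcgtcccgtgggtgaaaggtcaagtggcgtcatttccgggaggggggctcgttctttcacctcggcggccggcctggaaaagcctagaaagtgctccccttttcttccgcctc
Dnajc3, chr14:118937682-118937981, plus strand: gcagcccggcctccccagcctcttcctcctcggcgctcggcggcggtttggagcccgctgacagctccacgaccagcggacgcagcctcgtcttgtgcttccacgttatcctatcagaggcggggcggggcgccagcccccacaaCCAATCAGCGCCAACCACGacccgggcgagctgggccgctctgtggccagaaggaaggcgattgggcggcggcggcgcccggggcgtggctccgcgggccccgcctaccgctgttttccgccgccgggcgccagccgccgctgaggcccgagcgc
Hspa5, chr2:34771840-34772139, plus strand: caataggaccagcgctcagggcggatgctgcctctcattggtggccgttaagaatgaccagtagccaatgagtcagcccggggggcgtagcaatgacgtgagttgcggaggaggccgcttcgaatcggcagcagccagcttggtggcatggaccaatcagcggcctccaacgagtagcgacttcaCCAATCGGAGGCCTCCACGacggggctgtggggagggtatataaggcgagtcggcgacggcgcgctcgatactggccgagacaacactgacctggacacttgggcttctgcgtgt

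The trimeric element was in the windows of 4 member genes, Hsph1, Hspd1, Hspe1 and Dnajb6. It was in 0.603% of the 32851 windows used and 0.662% of the 27025 genes with such a window. All shares of windows or genes given here leave out chromosome 18. The count of 57 members with a window leaves it out too, so that Hspa9 and Dnajc18, which lie on it, were not searched. Hsph1 was the only 1 of the 4 called higher, and its element lay after the start. Hspd1 and Hspe1 are neighbours on opposite strands, and 1 Hspd1 window overlaps the Hspe1 window by 285 bases and holds the same stretch. The dimeric form GAANNTTC was in 13 member genes, among them Hspb1 (in 2 places, 117 and 97 bases before the start) and Hspa1a (104 bases before it), against 9.04% of all genes with a window, and TTCNNGAA was in 6, against 9.6%. The ER element was in 3 member genes, Hspa5, Hsp90b1 and Dnajc3, against 0.137% of all genes with a window, and of those 3 Dnajc3 alone was called. In Dnajc3 it began 105 bases and in Hspa5 65 bases before the start, and Dnajb14 held none of the elements in its window. These matches describe letters in a window and were not tested for binding.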

How the data were processed

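Liver RNA of 3 HFD and 3 RD samples was put on 6 arrays. The deposited values are log2 signals, 1 for each probe set on each array. The authors' summary and normalization steps were not given in the sources used here. That the logarithm has base 2 was inferred from the range of values, and array medians lay between 7.06 and 7.11. Of 35512 rows, 21789 had 1 gene symbol in the platform annotation, 1621 several and 12102 none listed; the brightest probe set per gene left 19938 genes, with no filter on dim ones, and no RefSeq match (GRCm38.p6) changed a symbol. The model held diet as its only term and was fitted to every gene by limma 3.58.1 under R 4.3.3, using lmFit, then eBayes. P-values are two-sided and were adjusted by Benjamini-Hochberg across the 19938 genes, with calls made under 0.05. A difference is HFD minus RD, given with its moderated SE or a 95% interval. Probe sets other than the 1 taken per gene are given by their values and differences alone. Whether probe sets of the same gene share sequence was not checked, so they are not counted as independent evidence. Lists were described by counts and medians. The fit was tested on simulated data.

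The members and lists were chosen with earlier results of these data known. The genes named were the members past the threshold, up to 4 of the smallest p in each compartment, a fixed set of main chaperones (of which Hspa1b and Hsp90ab1 had no probe set with a single symbol), the members of highest and lowest signal, and of each outside list up to 4 past the threshold. Genes outside this rule serve as values of the ranges given, or are said to be chosen after their values were seen. No scan date or batch was used here, and having 3 arrays a diet sets the precision. The replicates are biological per the series' design text. Alternatives were 10 other settings and each of 6 arrays left out. Motifs were searched with Python 3.11.15. All per-sample value columns were used.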

Additional observations from a re-analysis of the deposited data

How the results depend on the processing

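No member was called lower under any of the 16 alternatives run, and each of the 7 that rose kept a positive difference under all of them. Members called higher numbered 0 with every row of the table fitted and 0 in the unmoderated linear model, where 142 and 41 genes were called higher and 132 and 58 lower in all. With both settings 0 cytosolic, 0 ER and 0 other members passed, as did 0 ER folding and 0 CCT and prefoldin genes. Co-chaperones numbered 0 with every row and 1 unmoderated (Ppid, named after its values were seen), and genes that heat shock induces 1 higher with every row, 0 unmoderated, and 0 lower with either. Requiring at least 1.5-fold left 3 members higher, 2 cytosolic and 0 in the ER, with 0 co-chaperones, 0 CCT genes, 1 ER folding gene and 1 heat shock target, of 208 higher and 151 lower genes. Among the brighter genes 7 cytosolic members and 4 co-chaperones were higher, 1 co-chaperone was lower (Fkbp5, named after its values were seen; 1 also with the intensity trend), and 1 mitochondrial protease or chaperone, Grpel2, also seen last, was higher (1 also with the trend and 1 with median centring); the trend left 0 heat shock targets lower. Median differences moved to 0.061 (all members), 0.071 (cytosol) and -0.067 (mitochondrion) with median centring, and to 0.053 (all) and 0.080 (cytosol) among the brighter genes. The cause of these shifts was not tested.

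The diets share replicate numbers, but these gave no sign of pairing: deviations of same-numbered arrays from their diet means correlated at -0.11, 7.2e-05 and 0.12 for numbers 1, 2 and 3. With the replicate number as a block, 318 genes were higher and 245 lower, 4 members were higher (Hspa1a, Hspb1, Hsph1 and Dnajc12), and 0 ER members, 0 co-chaperones, 0 CCT genes and 0 ER folding genes passed.

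With 1 array left out, 197 to 371 genes were higher and 178 to 273 lower, and 1 to 6 members were higher, of which 1 to 3 cytosolic, 0 to 2 of the ER and 0 to 1 others. Co-chaperones numbered 0 to 2, CCT genes 0 to 1, ER folding genes 0 to 1 and heat shock targets 1 to 3 higher and 0 to 1 lower. Medians were 0.023 to 0.034 (all members), 0.030 to 0.069 (cytosol), -0.097 to -0.057 (mitochondrion) and -0.061 to -0.0070 (other). Uncalled members near 0 turned sign, with left-out ranges of -0.0038 to 0.071 for Hspa8, -0.27 to 0.026 for Hspb8, -0.023 to 0.15 for Dnajb6, -0.039 to 0.10 for Hsp90b1, -0.063 to 0.14 for Dnajb9, -0.038 to 0.17 for Dnajb11 and -0.017 to 0.010 for Hspa9, which was 0.017 with quantile normalization and 0.016 with median centring. Signal over background was not used here, so dim members such as Dnajb3 have no known floor.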
